A study of Ictidomys tridecemlineatus with 15 samples.

Results

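Summer active (SA) liver was compared with cold torpid liver of the 13-lined ground squirrel, Ictidomys tridecemlineatus, by global run-on sequencing (GRO-seq). The comparison used 8 of the 14 libraries for which counts were analysed, 3 from SA animals and 5 from torpid animals, the latter being 3 in early torpor (ET) and 2 in late torpor (LT), pooled here as the torpid group. All animals were laboratory-housed females staged by date and body temperature, each library came from the frozen liver of a different animal, and all libraries were prepared in parallel. The SA livers were taken in the warm season before hibernation began, ET livers early and LT livers late in a bout of torpor, and livers of interbout aroused (IBA) animals, hibernators that had rewarmed between bouts, served as a winter group that was not cold. A further 3 livers from animals entering torpor (Ent) entered the fit and no comparison. Ages are not given in the sources used here, and LT replicate 2 was not analysed here.

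A hibernator spends the winter in bouts of torpor, in which metabolism is suppressed and the body cools close to the surroundings, broken by short arousals to normal body temperature. GRO-seq isolates nuclei and lets polymerases that sit on a gene add a labelled nucleotide to the RNA they were making, so its reads mark where polymerases sat and not how much RNA the cell held. The liver supplies glucose, ketone bodies, bile acids, urea and most plasma proteins, and a fed liver also makes fat and cholesterol.

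The run-on reaction took place in nuclei isolated from frozen liver and not in the animal. The values are therefore shares of engaged polymerases among units within a library, and neither the rate of elongation in the cold animal nor the total amount of transcription was measured. In a whole liver, fewer cells of a type and less transcription per cell cannot be told apart. The paper reports polymerase beyond gene ends during torpor, and many units were extended 3′ to take in such reads. A rise can therefore include reads from beyond the named gene, and their part was not tested.

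The 8 libraries held 3713883 to 8884763 counts over 6324 units, of which 4705 have 1 gene name and 1619 join overlapping genes under several names. All values below are CPM, counts scaled to a common library total with the trimmed mean of M values (TMM), and a unit is called when its adjusted p in edgeR's quasi-likelihood test is at or under 0.001. Spearman's rho between libraries, over units, was 0.912 to 0.948 for the 3 pairs of SA livers, 0.935 to 0.978 for the 10 pairs of torpid livers and 0.759 to 0.797 for the 15 pairs of an SA and a torpid liver. SA replicate 2 stood apart from SA replicates 1 and 3 on the second principal component, at -30.0 against 16.6 and 12.5. SA replicate 1 and the LT animals were collected in the same hibernation cycle, SA replicates 2 and 3 in that of the IBA animals, and all ET animals in a cycle that holds no SA animal.

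Of the 6324 units, 860 were called higher and 924 lower in torpid than in SA liver, which is 13.6% and 14.6% of the units. The falls were deeper than the rises. For units called higher the log2 fold change was 1.08 at the median, with quartiles of 0.85 and 1.37 and a maximum of 4.04, whereas for units called lower it was -1.48 at the median, with quartiles of -2.10 and -1.08 and a minimum of -7.77. A change of 4-fold or more was seen in 53 of the units called higher and in 264 of those called lower. The median over all 6324 units was -0.04. Units called higher took up 7.52% ± 0.22 of the normalized reads in SA (SD, n = 3) and 17.3% ± 0.27 in torpid liver (SD, n = 5), and units called lower took up 18.8% ± 0.76 and 7.04% ± 0.24. These shares describe the calls and are no test, since the same libraries chose the units. In 3053 units (48.3%) the SA and torpid libraries did not overlap, with torpid liver above SA in 1526 and below it in 1527, and among single-gene units the share was 48.5%.

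With total counts in place of TMM the split was 1104 higher and 737 lower, and with the uniquely mapped reads as library size it was 1319 and 616, where the median over all units was 0.10 and 0.20. With the collection cycle as a term in the fit 280 units were called higher and 361 lower, and without SA replicate 3 there were 517 and 636. Since the ET animals fill a cycle of their own, the cycle term takes up their level. In that fit torpid minus SA therefore rests on the LT libraries, here and wherever the collection cycle is a term below.

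**Figure D1:**
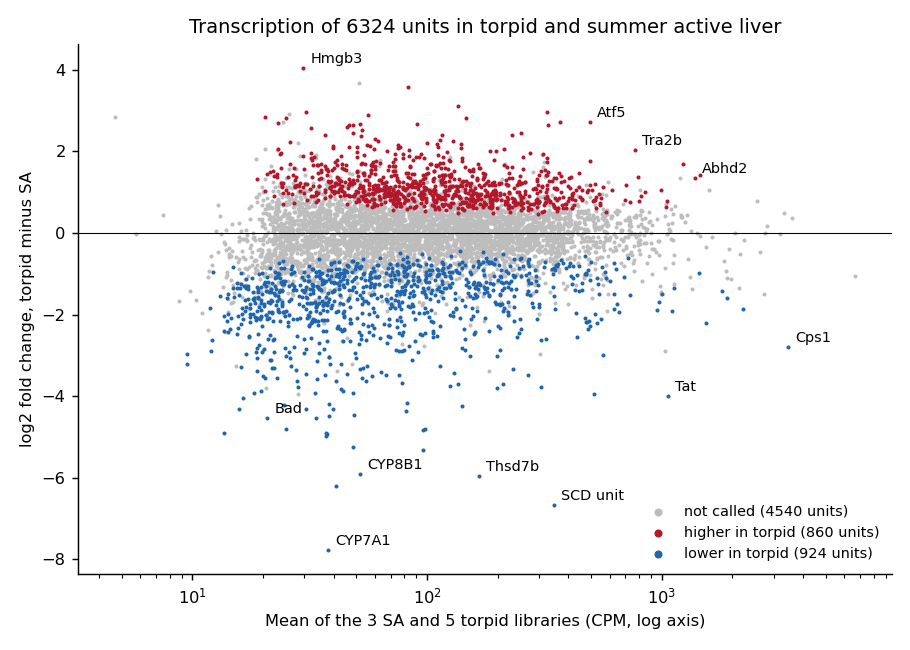
Each of the 6324 units is plotted by its mean over the 3 SA and 5 torpid libraries (CPM, log axis) and its log2 fold change, torpid minus SA. The 860 units called higher (red) lie mostly between 0.5 and 2, and the 924 called lower (blue) reach down to -7.77 (CYP7A1).

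The units with the largest rises and falls below were taken only from called units whose SA and torpid libraries did not overlap. Their lack of overlap was set by that choice and is no further support for them. Among single genes with a symbol chosen in this way, the largest rise was that of Hmgb3, a high-mobility group protein that bends DNA in chromatin. Hmgb3 (Itri10:116729751-116736584, plus strand, HiC_Itri_2 genome) was at 2.41, 2.48 and 3.21 CPM in SA, 50.1, 52.8 and 48.4 CPM in ET and 44.0 and 33.9 CPM in LT. It was low in each SA liver and far above that in each torpid liver, with a log2 fold change of 4.04 (SE 0.43, edgeR adjusted p = 6e-06). Its relatives moved the same way. Hmgb2 was at 21.5, 7.70 and 10.8 CPM in SA, 57.7, 58.7 and 70.4 CPM in ET and 119 and 78.7 CPM in LT. All 5 torpid livers were above the highest SA liver, and the log2 fold change was 2.53 (SE 0.35, edgeR adjusted p = 4.56e-05). The merged unit of Hmgb1 and a neighbouring annotation, whose counts cannot be divided between them, was at 35.7, 16.5 and 19.1 CPM in SA, 204, 167 and 158 CPM in ET and 255 and 233 CPM in LT, without overlap between the groups and with a log2 fold change of 3.10 (SE 0.28, edgeR adjusted p = 2.11e-06). Genes of this family have near-identical processed copies elsewhere in mammalian genomes, and how reads were divided among such copies was not tested.

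Several of the other leading rises were regulators. Atf5, a transcription factor of the stress response (Itri16:22095897-22114027, plus strand), was at 136, 109 and 88.2 CPM in SA, 666, 898 and 842 CPM in ET and 593 and 625 CPM in LT. All torpid livers were far above the highest SA liver, and the log2 fold change was 2.71 (SE 0.24, edgeR adjusted p = 1.76e-06). Etv5, an ETS transcription factor (Itri7:117703835-117762605, plus strand), was at 12.8, 14.9 and 8.20 CPM in SA, 47.9, 88.6 and 76.8 CPM in ET and 74.4 and 89.4 CPM in LT, again without overlap, and its log2 fold change was 2.68 (SE 0.24, edgeR adjusted p = 1.94e-06). Cbx2, a subunit of Polycomb repressive complex, was at 6.99, 5.23 and 3.80 CPM in SA, 40.1, 42.6 and 39.7 CPM in ET and 22.5 and 23.7 CPM in LT. Its ET livers were all above its LT livers, but the LT and ET states were not distinguished by the test (edgeR adjusted p = 0.27), and against SA the log2 fold change was 2.69 (SE 0.32, edgeR adjusted p = 1.31e-05).

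Fgfrl1, a receptor for fibroblast growth factors that lacks a kinase domain (Itri14:68444769-68487388, minus strand), was at 85.6, 57.2 and 44.2 CPM in SA, 711, 256 and 395 CPM in ET and 573 and 485 CPM in LT. The torpid livers varied, with ET replicate 1 the highest and ET replicate 2 the lowest, but all exceeded the SA livers, and the log2 fold change was 2.96 (SE 0.38, edgeR adjusted p = 2.53e-05). Mylip, the ubiquitin ligase that marks the LDL receptor for degradation, was at 45.6, 22.6 and 23.5 CPM in SA, 192, 131 and 243 CPM in ET and 303 and 212 CPM in LT, with torpid liver again above every SA liver and a log2 fold change of 2.83 (SE 0.42, edgeR adjusted p = 7.54e-05). Slc25a4, which carries ADP and ATP across the inner mitochondrial membrane, was at 26.0, 18.2 and 18.8 CPM in SA, 145, 192 and 129.9 CPM in ET and 87.1 and 108 CPM in LT. Its groups did not overlap, and its log2 fold change was 2.66 (SE 0.25, edgeR adjusted p = 2.72e-06).

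The remaining members of the 12 largest rises were Ypel1, Kiaa1143, Fuca2 and Gpat3, with log2 fold changes of 2.65, 2.61, 2.58 and 2.45. Gpat3, an acyltransferase that opens triglyceride synthesis, was at 72.5, 95.7 and 32.0 CPM in SA, 196, 341 and 479 CPM in ET and 382 and 411 CPM in LT, without overlap. With the collection cycle as a term, the calls of Fgfrl1, Ypel1, Kiaa1143 and Gpat3 were lost, while those of the other 8 were kept.

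In CPM, which also grows with the length of a gene, the 5 largest rises included 3 other genes. Abhd2, a lipid hydrolase, was at 899.7, 517 and 711 CPM in SA, 1538, 1852 and 2085 CPM in ET and 1673 and 1803 CPM in LT. All torpid livers lay above all SA livers, by a log2 fold change of 1.34 (SE 0.20, edgeR adjusted p = 8.42e-05), although the call was lost with the collection cycle as a term. Tra2b, a splicing activator (Itri7:117858655-117891769, plus strand), was at 301, 260.5 and 227 CPM in SA, 1260.1, 1081 and 943 CPM in ET and 1127 and 943 CPM in LT. The 3 SA livers differed little from each other, all torpid livers were far above them, and the log2 fold change was 2.03 (SE 0.14, edgeR adjusted p = 5.77e-07). Hnrnpa2b1, which binds nascent RNA and steers splicing and transport, was at 424, 383 and 374 CPM in SA, 1058, 923 and 857 CPM in ET and 816 and 785 CPM in LT, a log2 fold change of 1.17 (SE 0.13, edgeR adjusted p = 6.54e-06) with no overlap.

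The deepest fall was that of CYP7A1, the rate-limiting enzyme of bile acid synthesis (Itri6:70180323-70189278, plus strand). CYP7A1 was at 136, 7.15 and 158 CPM in SA, 0.884, 0 and 0.160 CPM in ET and 1.06 and 0 CPM in LT. Torpid livers held 0 to 7 counts each, so the log2 fold change of -7.77 (SE 0.87, edgeR adjusted p = 8.74e-06) rests on very few reads in torpid liver and on SA livers of which replicate 2 was far below the other two. CYP8B1, which directs bile acid synthesis to cholic acid (Itri2:199912174-199918682, plus strand), was at 209, 21.2 and 174 CPM in SA, 1.91, 0.982 and 2.71 CPM in ET and 3.33 and 2.06 CPM in LT. SA replicate 2 was again the lowest SA liver and still above every torpid liver, and the log2 fold change was -5.91 (SE 0.57, edgeR adjusted p = 2.97e-06). In a limma-voom fit the calls of both were lost, and with the collection cycle as a term that of CYP7A1.

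Lipid genes were also among the deepest falls. The deposited table names 3 units after stearoyl-CoA desaturase (SCD), the enzyme that makes monounsaturated fatty acids, and all 3 lie close together on Itri1, with gaps of 61.2 and 47.8 kb between neighbours. The unit SCD_containing_gene16206 (Itri1:33657946-33672214, plus strand) was at 1465, 643 and 621 CPM in SA, 12.7, 2.36 and 3.83 CPM in ET and 22.2 and 2.95 CPM in LT. Its share of the reads was high in every SA liver and far lower in every torpid liver, with a log2 fold change of -6.67 (SE 0.66, edgeR adjusted p = 3.7e-06). SCD_like (Itri1:33733397-33745897, minus strand) was at 515, 106 and 109 CPM in SA, 13.0, 3.93 and 5.75 CPM in ET and 16.3 and 3.09 CPM in LT, a log2 fold change of -4.84 (SE 0.67, edgeR adjusted p = 4.41e-05) without overlap, a call lost with the collection cycle as a term and with LT as the only torpid state. The third unit, SCD_containing_gene16210, was at 134, 53.9 and 49.8 CPM in SA, 47.7, 17.7 and 25.1 CPM in ET and 29.2 and 18.0 CPM in LT, and its log2 fold change of -1.52 (SE 0.37, edgeR adjusted p = 0.00298) did not pass the threshold. How uniquely aligned reads divide among such copies was not tested.

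Aacs_rna21691, a unit named for acetoacetyl-CoA synthetase, which returns ketone bodies to lipid synthesis, was at 520.4, 160.1 and 54.4 CPM in SA, 7.95, 4.12 and 3.51 CPM in ET and 11.8 and 3.09 CPM in LT. Each torpid liver was below each SA liver, and the log2 fold change was -5.31 (SE 0.62, edgeR adjusted p = 1.18e-05). A merged unit that carries an alternative copy of the same gene fell too, by 4.98 on the log2 scale (edgeR adjusted p = 2.6e-05), a call lost with limma-voom and with LT as the only torpid state. CYP1A1_like, named for a drug-metabolizing cytochrome P450, was at 155, 9.90 and 155 CPM in SA, 2.06, 0 and 0.479 CPM in ET and 4.08 and 0.295 CPM in LT, a log2 fold change of -6.20 (SE 0.88, edgeR adjusted p = 5.41e-05) that was lost with limma-voom, with the collection cycle as a term and with LT as the only torpid state.

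Among the other deep falls, Bad, a pro-apoptotic member of the BCL2 family (Itri3:8482605-8491975, plus strand), was the most even. It was at 52.1, 55.0 and 48.4 CPM in SA, 2.36, 1.77 and 2.71 CPM in ET and 1.81 and 2.36 CPM in LT. The groups were tight and far apart, with a log2 fold change of -4.54 (SE 0.33, edgeR adjusted p = 5.89e-07). Hdc, which makes histamine from histidine, was at 46.0, 26.4 and 44.6 CPM in SA, 1.77, 0.982 and 2.55 CPM in ET and 2.57 and 1.77 CPM in LT, likewise without overlap and with a log2 fold change of -4.31 (SE 0.36, edgeR adjusted p = 1.13e-06). Mmp20, a matrix metalloproteinase best known from tooth enamel, was at 177, 82.8 and 111 CPM in SA, 7.22, 3.54 and 0.638 CPM in ET and 4.38 and 0.442 CPM in LT, a log2 fold change of -5.24 (SE 0.59, edgeR adjusted p = 8.61e-06).

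Tat, tyrosine aminotransferase, starts the breakdown of tyrosine (Itri16:37379767-37398393, minus strand). It was at 2694, 2414 and 2559 CPM in SA, 193, 100.4 and 176 CPM in ET and 235 and 95.7 CPM in LT. SA livers were close to each other, every torpid liver was far below them, and the log2 fold change was -4.00 (SE 0.37, edgeR adjusted p = 2.21e-06). Igfbp1, a secreted binding protein for insulin-like growth factors, was at 2354, 226 and 1150.4 CPM in SA, 59.6, 35.5 and 160.4 CPM in ET and 94.6 and 54.2 CPM in LT. Its groups did not overlap, but SA replicate 2 came close to the highest torpid liver, ET replicate 3, and the log2 fold change of -3.94 (SE 0.62, edgeR adjusted p = 0.000133) was lost with the collection cycle as a term, with only the SA and torpid groups in the fit, and with ET or LT as the only torpid state. Thsd7b, a thrombospondin-domain protein, was at 21.5, 93.5 and 1184 CPM in SA, 10.2, 5.70 and 3.03 CPM in ET and 6.95 and 8.84 CPM in LT. SA replicate 3 was far above the other SA livers, and the log2 fold change of -5.96 (SE 0.90, edgeR adjusted p = 8.67e-05) was lost with limma-voom, with the collection cycle as a term, with only the SA and torpid groups in the fit and with LT as the only torpid state. Tmem178b completed the 12 beside Ddit4 and Nr4a1, which are described with the stress genes, and had a log2 fold change of -4.35 (SE 0.54, edgeR adjusted p = 2.01e-05), a call lost with the collection cycle as a term.

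**Figure D2:**
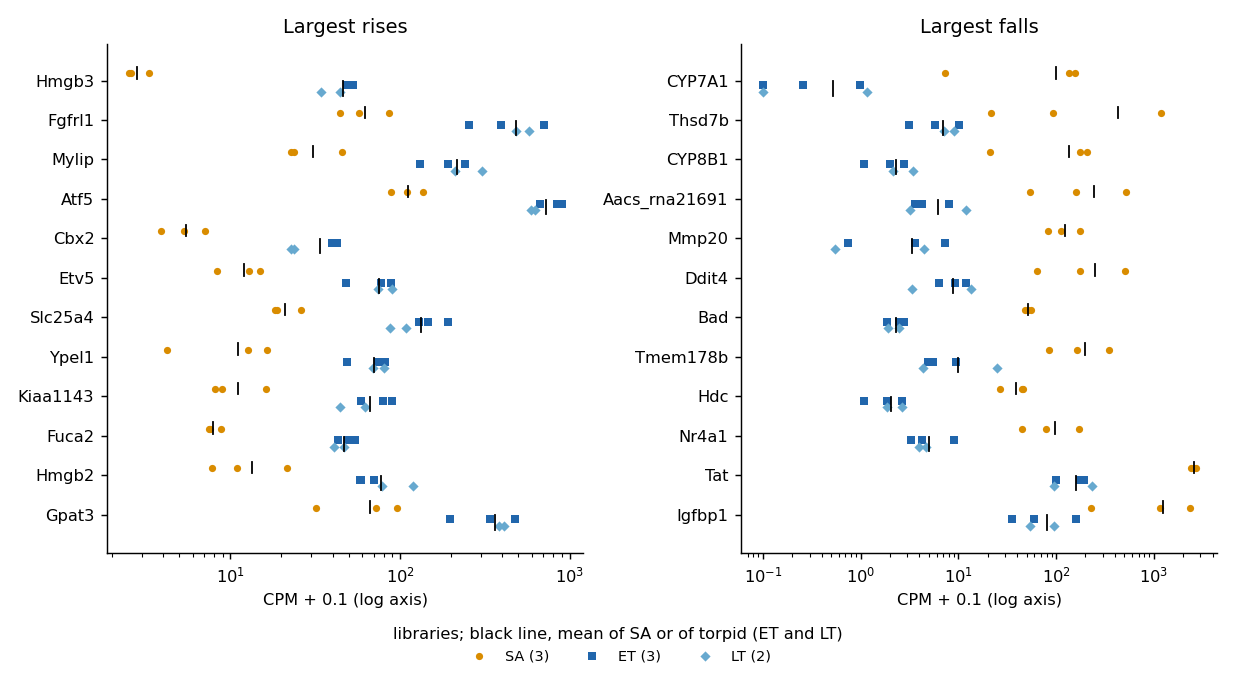
Each point is a library at its CPM plus 0.1 (log axis) for the 12 largest rises (left) and the 12 largest falls (right), with SA in orange, ET in dark blue and LT in light blue, and black lines at the mean of the 3 SA and of the 5 torpid libraries. The 24 genes were chosen among called units whose SA and torpid points do not overlap, so the lack of overlap is no finding. The SA points of CYP7A1, Thsd7b, CYP8B1, Aacs_rna21691, Ddit4 and Igfbp1 spread the most.

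Sorted by function, lists of metabolic and secretory liver genes mostly held more falls than rises, and lists of genes that handle RNA and protein mostly more rises than falls. Over all 4705 single-gene units 13.5% were called higher and 15.4% lower, and their median log2 fold change was -0.05. Counts in the gene lists below are of single-gene units and are read against these values, and members present only in merged units were not counted. For the 0 calls that follow in a direction in edgeR, the units at an unadjusted p at or under 0.05 in that direction were 0 for cholesterol, 1 for fatty acid synthesis, 1 for plasma proteins and 5 for immediate early genes among rises, and 1 for cytosolic ribosomal proteins, 1 for the proteasome and 2 for the vacuolar ATPase among falls. DESeq2 called 2 immediate early genes higher, 1 vacuolar ATPase unit lower and 0 in the other 5 cases.

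None of the 9 units of cholesterol synthesis and uptake was called higher and 6 were called lower, with a median log2 fold change of -1.35. Insig1, which holds the SREBP complex in the endoplasmic reticulum and is itself induced by SREBP, fell most. It was at 116, 534 and 262 CPM in SA, 53.9, 43.8 and 49.0 CPM in ET and 27.4 and 41.1 CPM in LT, below every SA liver in all 5 torpid livers, and its log2 fold change was -2.82 (SE 0.37, edgeR adjusted p = 2.97e-05), a call lost with the collection cycle as a term. Falls were also called in Hmgcs1 (-2.04) at the start of the mevalonate pathway, Msmo1 (-1.80) and Sc5d (-1.35) near its end, and Scap (-0.70), the sterol sensor. Insig2, the SREBP-independent partner, was not called, at 233 ± 82.8 CPM in SA (SD, n = 3) and 202 ± 52.4 CPM in torpid liver (SD, n = 5). Without SA replicate 2 the count was 3 of 9.

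In fatty acid and triglyceride synthesis 5 of 14 units were called lower and 0 higher, with a median of -0.88. Thrsp, a nuclear protein that follows lipogenesis, was at 283, 107 and 253 CPM in SA, 47.0, 32.4 and 40.4 CPM in ET and 47.5 and 36.1 CPM in LT. Torpid livers were close together and all below the SA livers, a log2 fold change of -2.40 (SE 0.32, edgeR adjusted p = 3.62e-05). Acly (-2.08), which makes cytosolic acetyl-CoA, Acss2 (-2.02), which makes it from acetate, and the desaturases Fads1 (-2.02) and Fads2 (-2.04) fell as well. Lpin1, a phosphatidic acid phosphatase and transcriptional co-regulator, was not called and overlapped, at 2758 ± 1595 CPM in SA (SD, n = 3) and 2767 ± 804 CPM in torpid liver (SD, n = 5). With LT as the only torpid state none of the 14 was called.

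Fatty acid oxidation and ketogenesis had 3 of 18 units called in each direction, and a median of -0.13, or 0.11 with the uniquely mapped reads as library size. With that library size, and in DESeq2, 5 were called higher. The rises were in the enzymes of the beta-oxidation spiral, Hadh (0.85), Hadhb (0.84) and Acadl (0.84). Hadh was at 237, 288 and 282 CPM in SA, 433, 475 and 477 CPM in ET and 495 and 542 CPM in LT, and all 5 torpid livers lay above the SA livers (edgeR adjusted p = 0.000116). Without any 1 of the SA libraries only 1 of the 3 rises was called. The falls were Vnn1 (-2.53), a pantetheinase induced by PPAR alpha, Eci2 (-1.68) and Bdh1 (-1.25), which forms beta-hydroxybutyrate. Vnn1 was at 131, 103 and 190.3 CPM in SA, 18.1, 26.3 and 24.3 CPM in ET and 27.5 and 26.4 CPM in LT, and even the highest torpid liver was well below the lowest SA liver (edgeR adjusted p = 5.89e-07). Acad11 had the most reads of the members not called, at 691 ± 129 CPM in SA (SD, n = 3) and 991 ± 114 CPM in torpid liver (SD, n = 5).

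Glucose and glycogen metabolism had 8 of 18 units called lower and 2 higher, with a median of -1.09. Gys2, the liver glycogen synthase (Itri4:87333798-87386872, plus strand), was at 577, 269.8 and 569.9 CPM in SA, 42.6, 28.1 and 34.0 CPM in ET and 32.7 and 32.0 CPM in LT. The torpid livers were close together and far below all SA livers, and the log2 fold change was -3.80 (SE 0.25, edgeR adjusted p = 5.77e-07). The glycogen-targeting phosphatase subunits Ppp1r3c and Ppp1r3b fell, by 2.69 and 1.98 on the log2 scale, and so did Ugp2 (-1.06), which makes UDP-glucose for glycogen. The gluconeogenic genes G6pc (-2.99) and Pck1 (-2.19), the glucose transporter Slc2a2 (-1.50) and the fructose kinase Khk (-1.79) fell too. The 2 rises were in glycolytic enzymes that most cells use, Pgk1 (1.31) and Gapdh (1.19). Pgk1 was at 55.9, 52.8 and 41.5 CPM in SA, 111, 124 and 129 CPM in ET and 130.5 and 125 CPM in LT, with no overlap (edgeR adjusted p = 8.28e-06). Without SA replicate 1, and likewise without SA replicate 2, 1 of the 2 was called. Gbe1, the glycogen branching enzyme, was at 2979 ± 995 CPM in SA (SD, n = 3) and 1370.4 ± 632 CPM in torpid liver (SD, n = 5) and was not called, ET replicate 2 lying among the SA livers.

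Amino acid catabolism and the urea cycle had 15 of 38 units called lower and 4 higher, with a median of -0.90. Next to Tat, the fall was large in Oat (-3.13), Gldc (-2.56), Kynu (-2.35), Got1 (-2.18) and Hgd (-2.07). Cps1, which fixes ammonia in the urea cycle, was at 6054, 13658 and 2643 CPM in SA, 1445, 433 and 1389.6 CPM in ET and 1418 and 673 CPM in LT. SA livers varied widely, with replicate 2 the highest, but stayed above all torpid livers, and the log2 fold change was -2.80 (SE 0.50, edgeR adjusted p = 0.000311), a call lost without SA replicate 2, without LT replicate 3 and with the collection cycle as a term. Asl (-1.41) and Nags (-1.23) of the urea cycle and Gls2 (-1.35) and Glul (-1.33) of glutamine handling fell as well. The 4 rises were all in the breakdown of branched-chain amino acids, namely Mccc2 (1.44), Bckdhb (1.07), Bckdha (0.95) and Ivd (0.77). Mccc2 was at 96.4, 71.2 and 87.6 CPM in SA, 242, 225 and 197 CPM in ET and 269 and 221 CPM in LT, and its torpid livers were all above the SA livers (edgeR adjusted p = 1.95e-06). Of these 4 rises, 2 were called without SA replicate 1, 1 without SA replicate 2, 2 without SA replicate 3 and 2 without ET replicate 2. Mat1a, which makes S-adenosylmethionine, missed the threshold at 2199.8 ± 996 CPM in SA (SD, n = 3) and 843 ± 282 CPM in torpid liver (SD, n = 5).

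Bile acid synthesis and drug metabolism had 6 of 20 units called lower and 1 higher, with a median of -1.01. After CYP7A1 and CYP8B1 came Slc10a1 (-2.28), the transporter that takes bile acids back up from blood, CYP7B1 (-1.54) and the xenobiotic receptors Nr1i2 (-1.37) and Ahr (-1.32). Aldh2, the mitochondrial aldehyde dehydrogenase, was the only rise, at 124, 125 and 152 CPM in SA, 244, 188 and 200.3 CPM in ET and 263 and 276 CPM in LT. Its log2 fold change of 0.81 (SE 0.16, edgeR adjusted p = 0.000812) was lost with the collection cycle as a term and without any 1 of the SA or Ent libraries, IBA replicate 1, ET replicate 1, LT replicate 1 or LT replicate 3. Acox2, of bile acid side-chain oxidation, was not called, at 992 ± 371 CPM in SA (SD, n = 3) and 699.5 ± 104 CPM in torpid liver (SD, n = 5).

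Of 41 units for secreted plasma proteins, 12 were called lower and 0 higher, with a median of -1.01. DESeq2 called 20 lower, and 5 were lower with the collection cycle as a term and 6 with LT as the only torpid state. After Igfbp1 the falls included AFM (-2.60), the carriers Ttr (-2.17), Rbp4 (-1.93) and Apom (-2.03), Apoh (-1.83), the complement genes Masp1 (-1.53) and Cfi (-1.50), Fn1 (-1.43), Plg (-0.95) and Itih2 (-0.83). Selenop, the plasma carrier of selenium, is outside the list but had one of the 5 largest falls in CPM, at 4444, 1892 and 2740.0 CPM in SA, 891, 596 and 659.6 CPM in ET and 770.3 and 362 CPM in LT, a log2 fold change of -2.21 (SE 0.36, edgeR adjusted p = 0.000151). Slc38a4, an amino acid transporter of hepatocytes, was in the same group of 5, at 3481, 3088 and 2356 CPM in SA, 1603, 978 and 915 CPM in ET and 1294 and 726 CPM in LT, a log2 fold change of -1.43 (SE 0.26, edgeR adjusted p = 0.000358). With the collection cycle as a term the calls of both were lost, as they were without SA replicate 1, and that of Slc38a4 also without SA replicate 2, ET replicate 2 or ET replicate 3. Apob, the scaffold of very low density lipoprotein, was among the 29 not called, at 3228 ± 410.5 CPM in SA (SD, n = 3) and 3168 ± 797 CPM in torpid liver (SD, n = 5), with a log2 fold change of -0.03 ± 0.21 (SE).

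Transcription factors of the hepatocyte had 5 of 15 units called lower and 1 higher, with a median of -0.71. Hnf4a, the central regulator of hepatocyte genes, was at 983, 889.5 and 895 CPM in SA, 502, 346 and 419.9 CPM in ET and 419 and 354 CPM in LT. All 5 torpid livers were below the SA livers, which were close to each other, and the log2 fold change was -1.18 (SE 0.14, edgeR adjusted p = 1.6e-05). Onecut2 (-1.11), Nr5a2 (-0.86), Gata6 (-0.84) and Foxa1 (-0.71) fell by less. The count of falls was 3 without SA replicate 3, 2 with the uniquely mapped reads as library size, 2 with LT as the only torpid state and 1 with the collection cycle as a term. Thrb, a thyroid hormone receptor, was not called, at 898 ± 101 CPM in SA (SD, n = 3) and 730.2 ± 158 CPM in torpid liver (SD, n = 5).

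Defining hepatocyte markers were transcribed in every library. The 7 hepatocyte markers with a single-gene unit summed to 11396 to 22274 CPM in SA, 3642 to 7039 CPM in torpid and 9742 to 13848 CPM in IBA liver, and 4 of them were called lower (Tat, Cps1, Ttr and Hnf4a). The 5 endothelial markers had 1 call, Eng (-0.97), with a median of -0.78. That call was lost without SA replicate 1, SA replicate 2 or LT replicate 3 and with the collection cycle as a term. It was also lost with total counts, with the uniquely mapped reads as library size and with replicate number as a block. Kdr was at 101 ± 36.4 CPM in SA (SD, n = 3) and 59.0 ± 16.1 CPM in torpid liver (SD, n = 5). The only stellate cell marker with a unit was Rgs5, at 54.0 ± 16.6 CPM in SA (SD, n = 3) and 40.3 ± 9.41 CPM in torpid liver (SD, n = 5). Neither of the 2 cholangiocyte markers was called, and Sox9 was at a log2 fold change of -1.43. None of the 13 macrophage and 16 blood cell markers had a single-gene unit, so a change in the share of those cells was not tested.

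Immediate early and stress response genes, only some of which are induced within minutes by growth factors, hormones or injury, had 11 of 29 units called lower and 0 higher, with a median of -1.02. Ddit4, an inhibitor of mTOR complex 1, was at 505, 175 and 63.6 CPM in SA, 11.8, 6.28 and 9.10 CPM in ET and 13.3 and 3.24 CPM in LT. SA livers varied widely, all of them above the torpid livers, and the log2 fold change was -4.81 (SE 0.67, edgeR adjusted p = 4.71e-05), a call lost with limma-voom and with LT as the only torpid state. Nr4a1, an orphan nuclear receptor, was at 79.5, 44.8 and 171 CPM in SA, 8.98, 3.14 and 4.15 CPM in ET and 4.53 and 3.83 CPM in LT, also without overlap and with a log2 fold change of -4.31 (SE 0.40, edgeR adjusted p = 2.41e-06). Egr1 (-3.92), the arrestin-domain genes Arrdc3 (-3.48) and Arrdc4 (-1.32), the phosphatase Dusp6 (-2.63), Gadd45g (-2.39), Bcl6 (-2.10) and Nfkbiz (-1.27) fell as well. The mRNA-destabilizing zinc finger proteins Zfp36l2 (-2.70) and Zfp36l1 (-2.46) are on this list and on that of zinc finger genes. Klf9 had the most reads of the 18 not called, at 495 ± 115 CPM in SA (SD, n = 3) and 734 ± 146 CPM in torpid liver (SD, n = 5). Without SA replicate 3 the count was 7.

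Splicing factors were the list with the most rises. Of 56 units, 27 were called higher and 2 lower, with a median of 0.60, and 44 of the 56 fold changes were above 0. Hnrnpdl, an RNA-binding protein of the hnRNP D family (Itri14:5901063-5915998, plus strand), was at 72.8, 86.1 and 56.6 CPM in SA, 314, 399 and 286 CPM in ET and 232 and 263 CPM in LT. Every torpid liver was well above the highest SA liver, a log2 fold change of 2.06 (SE 0.19, edgeR adjusted p = 2.27e-06). SR proteins rose, with Srsf6 (1.67), Srsf7 (1.45), Srsf11 (1.11), Srsf3 (0.92), Srsf5 (0.89) and Tra2a (1.01) next to Tra2b. Among hnRNP proteins the rises were Hnrnpa1 (1.96), Hnrnpd (1.42), Hnrnph3 (1.07), Hnrnpa3 (0.68) and Hnrnpf (0.61). Tardbp (1.58) and Sfpq (1.53), and spliceosome components such as Sf3a1 (0.93), Sf3b1 (0.76), Snrpb2 (1.14) and Prpf19 (1.14), rose too.

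The 2 splicing factors called lower were Mbnl2 and Hnrnpul2 (-0.83). Mbnl2, a muscleblind splicing regulator, was at 657, 718 and 498 CPM in SA, 358, 222 and 277 CPM in ET and 366 and 241 CPM in LT, a log2 fold change of -1.09 (SE 0.21, edgeR adjusted p = 0.000618). That call was lost without SA replicate 1 or 2, Ent replicate 1 or 2, ET replicate 2 or 3 or LT replicate 3, with the uniquely mapped reads as library size and with the collection cycle as a term. Rbfox2, a tissue-restricted splicing regulator, was at 782 ± 347 CPM in SA (SD, n = 3) and 941 ± 83.8 CPM in torpid liver (SD, n = 5) and was not called. With the collection cycle as a term the rises were 14 of 56, and the median was 0.60.

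Cleavage, polyadenylation and termination factors had 8 of 22 units called higher and 1 lower, with a median of 0.32. Cstf3, of the cleavage stimulation factor, was at 99.8, 159 and 80.1 CPM in SA, 263, 306 and 257 CPM in ET and 345 and 274 CPM in LT, with every torpid liver above every SA liver and a log2 fold change of 1.36 (SE 0.21, edgeR adjusted p = 0.000113). Pcf11 (0.87), which releases the polymerase after cleavage, Rprd1a (0.84), Cpsf3 (0.82), the endonuclease itself, Cpsf6 (0.77), Fip1l1 (0.72), Papolg (0.69) and Cpsf7 (0.64) rose too. With the collection cycle as a term 1 rise was called. Ints6, of the Integrator complex, fell, at 365, 353 and 449.6 CPM in SA, 147, 246 and 192 CPM in ET and 208 and 158 CPM in LT and a log2 fold change of -1.03 (SE 0.16, edgeR adjusted p = 0.000134), lost without SA replicate 3, with the uniquely mapped reads as library size and with the collection cycle as a term. Scaf8, which binds the tail of RNA polymerase II, was not called, at 495 ± 57.4 CPM in SA (SD, n = 3) and 713 ± 85.3 CPM in torpid liver (SD, n = 5).

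RNA polymerase II and its elongation factors had 3 of 24 units called higher and 1 lower, with a median of 0.20. The rises were 7 in DESeq2 and with the uniquely mapped reads as library size, 1 with ET and 0 with LT as the only torpid state, and 0 with the collection cycle as a term. The NELF complex, which holds polymerase paused near the promoter, had a member on each side. Nelfa was at 25.8, 25.6 and 16.4 CPM in SA, 64.9, 41.0 and 43.6 CPM in ET and 46.6 and 51.6 CPM in LT, a log2 fold change of 1.14 (SE 0.22, edgeR adjusted p = 0.000537). Nelfe was at 32.5, 36.0 and 28.8 CPM in SA, 10.0, 14.1 and 12.6 CPM in ET and 7.71 and 10.6 CPM in LT, a log2 fold change of -1.56 (SE 0.23, edgeR adjusted p = 8.33e-05). Neither gene's groups overlapped, but the call of Nelfa was lost with the collection cycle as a term and without any 1 of the SA libraries, ET replicate 1 or LT replicate 3. Ctr9 (0.82), of the PAF complex, and Ccnt2 (0.66), a cyclin of the elongation kinase P-TEFb, were the other rises. Of the 3 rises 1 was called without SA replicate 1, without SA replicate 2 and without LT replicate 3. Ell2 was not called, at 546 ± 122 CPM in SA (SD, n = 3) and 349 ± 52.2 CPM in torpid liver (SD, n = 5).

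RBM RNA-binding proteins had 4 of 17 units called in each direction, with a median of -0.18, or 0.06 with the uniquely mapped reads as library size. With that library size 7 were called higher and 1 lower, in DESeq2 7 and 4, and with the collection cycle as a term 2 and 1. Rbm22, a spliceosome protein, was at 22.2, 22.0 and 17.7 CPM in SA, 68.0, 63.2 and 61.4 CPM in ET and 54.6 and 52.0 CPM in LT, a log2 fold change of 1.54 (SE 0.18, edgeR adjusted p = 1.17e-05). Rbm20, a splicing repressor known from heart muscle, was at 64.6, 23.9 and 34.8 CPM in SA, 7.22, 6.48 and 6.54 CPM in ET and 5.44 and 5.01 CPM in LT, a log2 fold change of -2.74 (SE 0.35, edgeR adjusted p = 2.64e-05). In both the torpid livers were tightly grouped and apart from the SA livers. Rbm42 (1.15), Rbm5 (0.96) and Rbm10 (0.81) rose, and Rbm41 (-0.89), Rbm47 (-0.62) and Rbm12 (-0.57) fell. Without SA replicate 1, and likewise without SA replicate 3, 2 of the 4 falls were called. Rbm33 was not called, at 308 ± 11.7 CPM in SA (SD, n = 3) and 250.4 ± 42.1 CPM in torpid liver (SD, n = 5).

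Cytosolic ribosomal proteins had 8 of 30 units called higher and 0 lower, with a median of 0.64. That median was -0.01 with the collection cycle as a term, where 4 were called higher, and 0.03 with LT as the only torpid state. Rpl15 was at 21.2, 17.1 and 17.0 CPM in SA, 94.1, 99.0 and 88.9 CPM in ET and 87.2 and 69.4 CPM in LT, every torpid liver being far above the highest SA liver, and its log2 fold change was 2.25 (SE 0.21, edgeR adjusted p = 2.63e-06). Rpl34 (1.97), Rplp1 (1.82), Rpl9 (1.40), Rps29 (1.37), Rpl37a (1.28), Rpl22 (1.22) and Rps16 (1.15) rose too. Rps19 was not called, at 46.2 ± 20.9 CPM in SA (SD, n = 3) and 78.7 ± 20.2 CPM in torpid liver (SD, n = 5). A further 41 genes of this list are only in merged units, and ribosomal protein genes have many processed copies whose share of the reads was not tested.

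Mitochondrial ribosomal proteins had 3 of 12 units called higher and 1 lower, with a median of 0.29. Their largest change was a fall. Mrpl14 (Itri8:48001514-48024273, minus strand) was at 65.8, 73.4 and 51.7 CPM in SA, 5.15, 4.71 and 7.34 CPM in ET and 6.20 and 7.51 CPM in LT, close together on both sides and far apart, with a log2 fold change of -3.35 (SE 0.21, edgeR adjusted p = 5.77e-07). Mrpl19 was at 21.7, 21.7 and 22.8 CPM in SA, 29.7, 57.2 and 53.0 CPM in ET and 41.1 and 47.1 CPM in LT, a log2 fold change of 1.04 (SE 0.21, edgeR adjusted p = 0.000829), a call lost without any 1 of the SA, IBA or LT libraries, Ent replicate 2 or ET replicate 2 or 3. Mrps30 (0.92) and Mrpl48 (0.90) were the other rises, and 1 or 2 of the 3 were called when any 1 of the 14 libraries was left out and 0 with the collection cycle as a term. Mrps18a was not called, at 64.9 ± 5.85 CPM in SA (SD, n = 3) and 94.0 ± 12.1 CPM in torpid liver (SD, n = 5).

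Nuclear genes for oxidative phosphorylation had 8 of 27 units called higher and 1 lower, with a median of 0.45, and 23 of the 27 fold changes were above 0. Subunits of ATP synthase led, with Atp5e (1.66), Atp5a1 (1.53), Atp5h (1.39) and Atp5o (1.27). Atp5e was at 21.9, 16.8 and 14.1 CPM in SA, 49.2, 44.8 and 50.4 CPM in ET and 65.5 and 67.2 CPM in LT, with no overlap (edgeR adjusted p = 2.15e-05). In complex I, Ndufa10 (1.30), Ndufv3 (1.07), Ndufa9 (0.83) and the assembly factor Ndufaf4 (1.14) rose, while Ndufb9 fell. Ndufb9 was at 73.3, 60.2 and 54.7 CPM in SA, 27.4, 24.6 and 26.8 CPM in ET and 16.5 and 18.1 CPM in LT, a log2 fold change of -1.47 (SE 0.18, edgeR adjusted p = 2.14e-05). The count of rises was 4 without SA replicate 2 or SA replicate 3 and 2 with the collection cycle as a term. Sdhb, of complex II, was not called, at 174 ± 36.2 CPM in SA (SD, n = 3) and 256 ± 21.4 CPM in torpid liver (SD, n = 5).

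Proteasome subunits had 6 of 20 units called higher and 0 lower, with a median of 0.43, and 19 of the 20 fold changes were above 0. Psmb3, a subunit of the catalytic core, was at 33.0, 44.6 and 26.9 CPM in SA, 131, 108 and 109.8 CPM in ET and 117 and 128 CPM in LT. The torpid livers were all well above the highest SA liver, a log2 fold change of 1.78 (SE 0.19, edgeR adjusted p = 6.8e-06). Psmb2 (1.28) and Psmb1 (0.75) of the core and Psmc1 (1.43), Psmd4 (1.18) and Psmd12 (0.95) of the regulatory particle rose too. Psmd11 was not called, at 195 ± 2.65 CPM in SA (SD, n = 3) and 217 ± 13.5 CPM in torpid liver (SD, n = 5). The count was 5 or 6 whichever of the 14 libraries was left out, and 5 with the collection cycle as a term.

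Lysosome and autophagy genes had 8 of 35 units called higher and 2 lower, with a median of 0.24. Neu1, a sialidase of the lysosome (Itri8:35860896-35877587, minus strand), was at 30.1, 21.7 and 23.2 CPM in SA, 120.2, 96.4 and 91.3 CPM in ET and 122 and 111 CPM in LT. The SA and torpid livers were each tightly grouped, and the log2 fold change was 2.11 (SE 0.16, edgeR adjusted p = 7.47e-07). Gabarapl2 (1.74) and Atg4d (1.33) of the autophagosome, and Ctsh (1.62), Npc2 (1.54), Asah1 (1.04) and Hexa (0.56) of the lysosome, rose too. Npc1, the membrane protein to which Npc2 hands cholesterol, fell. It was at 217, 177 and 317 CPM in SA, 41.2, 63.0 and 57.3 CPM in ET and 64.7 and 69.4 CPM in LT, a log2 fold change of -2.01 (SE 0.18, edgeR adjusted p = 1.86e-06), and Atg4c (-1.28) was the other fall. Without SA replicate 3 the rises were 5, and without SA replicate 2 the falls were 4. Tax1bp1 was not called, at 432 ± 152 CPM in SA (SD, n = 3) and 321 ± 33.2 CPM in torpid liver (SD, n = 5).

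Of the 6 vacuolar ATPase units, whose products acidify the lysosome, 1 was called higher, with a median of 0.15. Atp6v1g1 was at 61.7, 61.6 and 50.3 CPM in SA, 149, 115 and 116 CPM in ET and 119.9 and 113 CPM in LT, without overlap and with a log2 fold change of 1.09 (SE 0.14, edgeR adjusted p = 2.29e-05), lost with the collection cycle as a term. Atp6v1b2 did not overlap either but missed the threshold, at 124 ± 14.5 CPM in SA (SD, n = 3) and 196 ± 27.9 CPM in torpid liver (SD, n = 5).

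Heat shock proteins and chaperones had 5 of 25 units called higher and 2 lower, with a median of 0.33. Hsp90aa1, the inducible form of HSP90, was at 57.1, 55.8 and 29.8 CPM in SA, 219.6, 144 and 128 CPM in ET and 133 and 128 CPM in LT. All torpid livers were well above the highest SA liver, and the log2 fold change was 1.67 (SE 0.24, edgeR adjusted p = 5.35e-05), lost with the collection cycle as a term. Hsf2 (1.39), a heat shock factor, Hspd1 (1.22), the mitochondrial chaperonin, Dnaja2 (1.05) and Cct4 (0.75) were the other rises. Dnajb1, a classic target of heat shock factor 1, was at 37.6, 40.2 and 34.7 CPM in SA, 22.1, 19.2 and 17.6 CPM in ET and 10.3 and 13.7 CPM in LT, a log2 fold change of -1.18 (SE 0.23, edgeR adjusted p = 0.000598), and Dnaja3 (-0.87) was the other fall. Both falls were lost without SA replicate 1, without SA replicate 2, without any 1 of the IBA libraries and without LT replicate 3, and 1 was lost without SA replicate 3, Ent replicate 2, ET replicate 1 or ET replicate 3. With the uniquely mapped reads as library size both were lost too. The call of Dnajb1 was also lost with total counts and with replicate number as a block. Dnajb6 was not called, at 147 ± 5.55 CPM in SA (SD, n = 3) and 199.6 ± 56.2 CPM in torpid liver (SD, n = 5).

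The endoplasmic reticulum and integrated stress response had 5 of 26 units called higher and 3 lower, with a median of 0.02. The rises were mostly factors downstream of eIF2 alpha phosphorylation, with Ppp1r15a (1.74), its phosphatase subunit, and Ddit3 (1.26) next to Atf5, and also Derl1 (1.06) and Mbtps1 (0.97). Xbp1, the transcription factor of another arm, fell. It was at 567, 184 and 349 CPM in SA, 88.4, 141 and 119.7 CPM in ET and 96.9 and 92.4 CPM in LT, a log2 fold change of -1.77 (SE 0.29, edgeR adjusted p = 0.000164) that was lost without SA replicate 1 and with the collection cycle as a term. Edem2 (-1.07) and Eif2ak1 (-0.65) were the other falls, and 1 of the 3 was called without SA replicate 1. Herpud1 was not called, at 452 ± 134 CPM in SA (SD, n = 3) and 663 ± 114 CPM in torpid liver (SD, n = 5).

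Circadian clock genes had 2 of 12 units called in each direction, with a median of 0.78. Bhlhe40, a repressor within the clock, was at 209, 142 and 331 CPM in SA, 52.0, 42.0 and 30.6 CPM in ET and 42.3 and 30.2 CPM in LT, without overlap and with a log2 fold change of -2.53 (SE 0.28, edgeR adjusted p = 8.4e-06). Nr1d2 (-1.37) was the other fall. Csnk1d, a kinase that marks PER proteins, was at 114, 122 and 98.7 CPM in SA, 356, 164 and 255 CPM in ET and 265 and 239.6 CPM in LT, a log2 fold change of 1.20 (SE 0.21, edgeR adjusted p = 0.000241), and Clock (0.64) was the other rise. Neither rise was called without SA replicate 1 or without SA replicate 3, and 1 was called without IBA replicate 3, ET replicate 2, ET replicate 3 or LT replicate 1. Btrc was not called, at 225 ± 10.4 CPM in SA (SD, n = 3) and 267 ± 17.5 CPM in torpid liver (SD, n = 5). The hour of collection was not used here.

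Zinc finger genes named ZNF or ZFP had 11 of 75 units called higher and 10 lower, with a median of -0.18, or 0.06 with the uniquely mapped reads as library size. With that library size 18 were called higher and 7 lower, in DESeq2 18 and 11, and with the collection cycle as a term 1 and 5. Znf30 was at 15.7, 8.25 and 9.15 CPM in SA, 27.5, 27.9 and 33.0 CPM in ET and 23.1 and 33.1 CPM in LT, a log2 fold change of 1.40 (SE 0.23, edgeR adjusted p = 0.000187), a call lost without SA replicate 2 or 3 and with the collection cycle as a term. Zfp36l2 was at 142, 82.2 and 207 CPM in SA, 27.8, 25.5 and 23.9 CPM in ET and 17.2 and 16.3 CPM in LT, a log2 fold change of -2.70 (SE 0.25, edgeR adjusted p = 2.41e-06). Neither gene overlapped between the groups. The rises numbered 3 without SA replicate 3, 5 without SA replicate 2, 6 without SA replicate 1, ET replicate 3 or LT replicate 3 and 7 without any 1 of the IBA libraries, and the falls 6 without SA replicate 3. Znf407 was not called, at 302 ± 44.5 CPM in SA (SD, n = 3) and 385 ± 27.5 CPM in torpid liver (SD, n = 5).

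NRF2 and antioxidant defence genes had 0 of 16 units called in either direction, with a median of 0.21. At an unadjusted p at or under 0.05, edgeR's fit had 5 of them higher and 3 lower, and DESeq2 called 2 higher and 2 lower. Nfe2l2, which encodes NRF2, had the most reads among them and did not overlap, at 560.0 ± 120.3 CPM in SA (SD, n = 3) and 372 ± 27.2 CPM in torpid liver (SD, n = 5), but missed the threshold with a log2 fold change of -0.59 (SE 0.13, edgeR adjusted p = 0.00131).

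Other fits moved further counts by more than 1.5 times. The falls with the collection cycle as a term were 2 for cholesterol, 2 for fatty acid synthesis, 4 for glucose, 8 for amino acids, 2 for bile acids and 5 for immediate early genes. They were 0 for the endoplasmic reticulum and 1 each for heat shock, splicing factors, the clock and the lysosome. The rises in that fit were 1 each for fatty acid oxidation, glucose, amino acids and heat shock. They were 2 for the endoplasmic reticulum, 0 for the clock and 4 for the lysosome. With LT as the only torpid state, a fit with fewer samples, the falls were 3 for cholesterol, 5 for glucose, 7 for amino acids and 5 for immediate early genes, and the rises were 3 for cleavage and polyadenylation and 5 for oxidative phosphorylation.

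Of the units named so far, those no longer called with LT as the only torpid state were Thsd7b, Ddit4, Igfbp1, Cps1, Selenop, Slc38a4, CYP1A1_like, AACSP1_containing:G17377:Aacs_rna21691_alt, Thrsp, Xbp1, Csnk1d, Mbnl2, Ints6, Nelfa, Mrpl19, Znf30, Eng and SCD_like. With ET as the only torpid state they were Igfbp1, Cps1, Selenop, Slc38a4, Aldh2, Dnajb1, Xbp1, Mbnl2, Ints6, Nelfa, Mrpl19 and Eng, and with only the SA and torpid groups in the fit Thsd7b, Igfbp1, Cps1, Slc38a4, Aldh2, Dnajb1, Xbp1, Csnk1d, Mbnl2, Ints6, Nelfa, Mrpl19, Znf30 and Eng.

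**Figure D3:**
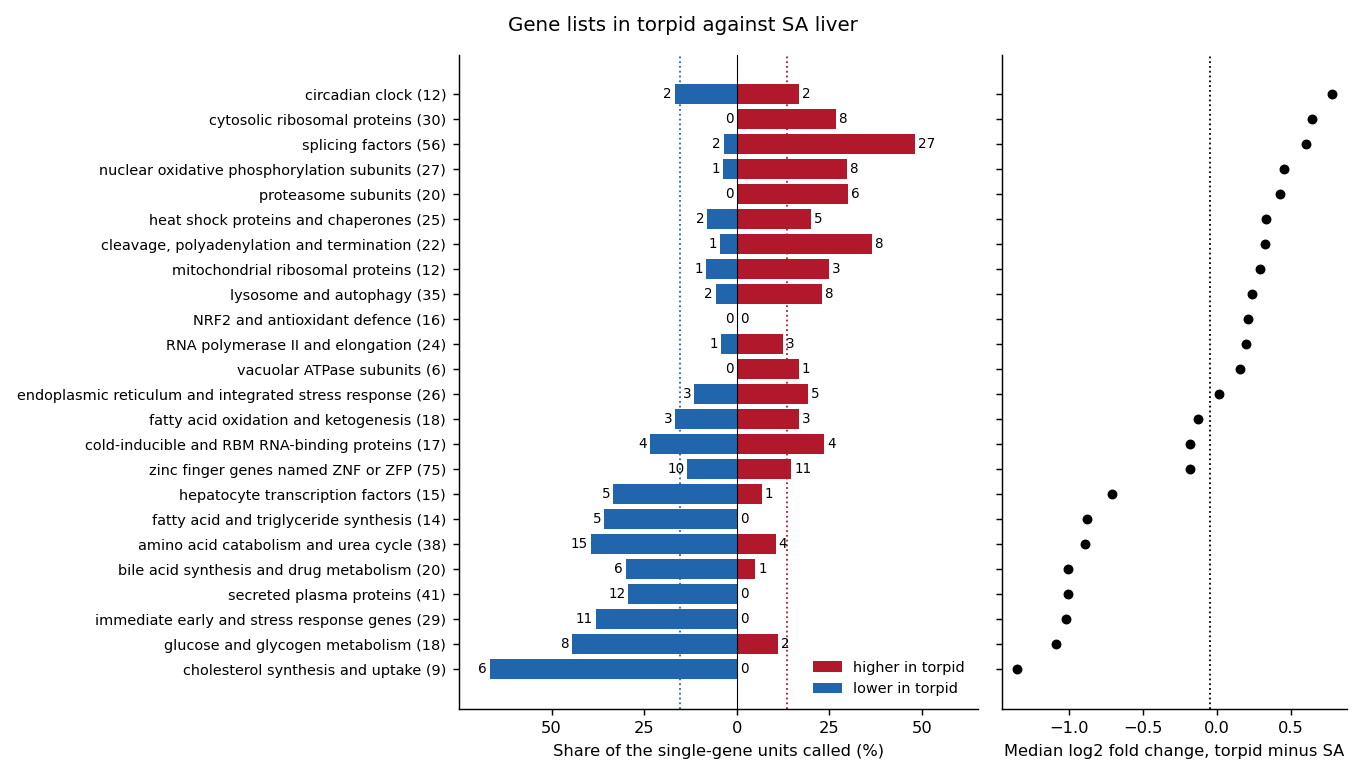
For 24 gene lists with the number of single-gene units in parentheses, bars give the share of units called higher (red, right) and lower (blue, left) in torpid liver with the counts beside them, and points give the median log2 fold change. Dotted lines mark the 13.5%, 15.4% and -0.05 of all single-gene units, and splicing factors (27 of 56 higher) and cholesterol synthesis and uptake (6 of 9 lower) lie farthest from the lines of their direction.

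Among units without a gene symbol the calls differed by kind of name, and the differences were not tested. Of the 161 units named only with the letter G and a number, 8 were called higher and 55 lower, and the median log2 fold change was -1.11. Of the 112 named LOC with a number, 3 were called higher and 35 lower, with a median of -0.50. Of the 36 units named ENSSTOG 4 were called higher and 7 lower, and of 196 with other names 24 and 34. The 4200 units with a symbol had 594 calls in each direction and a median of -0.0047. The G units were shorter, with a median length of 11852 nt against 39003.5 nt, and held fewer counts per library, with a median of 159 against 494.5. Their part in the difference was not tested. The largest rise of a single unit without a symbol was ENSSTOG00000033800 (Itri16:49770098-49786364, minus strand), at 15.2, 7.70 and 9.15 CPM in SA, 115, 128 and 105 CPM in ET and 118 and 169 CPM in LT, a log2 fold change of 3.58 (SE 0.27, edgeR adjusted p = 7.02e-07). PPP3R1_like, named for the regulatory subunit of calcineurin, was at 5.54, 6.05 and 5.82 CPM in SA, 53.2, 65.0 and 42.5 CPM in ET and 33.6 and 32.8 CPM in LT, a log2 fold change of 2.96 (SE 0.33, edgeR adjusted p = 8.34e-06).

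Merged units changed about as often as single genes, with 227 of 1619 (14%) called higher and 199 (12.3%) lower. After the Hmgb1 unit, the largest rise was that of the unit joining Tssk2, Tssk1b and G17432, at 16.6, 4.68 and 11.8 CPM in SA, 116, 53.8 and 74.5 CPM in ET and 70.0 and 98.7 CPM in LT, a log2 fold change of 2.89 (SE 0.36, edgeR adjusted p = 1.77e-05) that was lost with the collection cycle as a term. The unit joining G3243 and G3238 (Itri1:231244037-231249629, minus strand) was at 154, 31.4 and 39.1 CPM in SA, 3.83, 5.11 and 3.83 CPM in ET and 4.38 and 1.77 CPM in LT, a log2 fold change of -4.31 (SE 0.53, edgeR adjusted p = 1.77e-05) that was lost with limma-voom. It lies 28.3 kb from Selenop on the same strand.

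The IBA livers were used to set these changes beside a winter state that is warm. Both comparisons share the 5 torpid libraries, so their fold changes are not independent, and only the values are given side by side. Against IBA, 917 units were called higher and 911 lower in torpid liver, together 28.9% of the units, and against SA 1784 (28.2%).

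Of the 12 largest rises, 11 were also called higher in torpid than in IBA liver. Hmgb3 was at 0.853, 1.67 and 3.83 CPM in the 3 IBA livers, near the SA level, and torpid minus IBA gave 4.32 (SE 0.44, edgeR adjusted p = 3.7e-06). Tra2b was at 245, 229.9 and 256 CPM in IBA, and the difference from torpid was 2.13 (SE 0.14, edgeR adjusted p = 2.8e-07). Etv5 was at 25.6, 27.8 and 27.9 CPM in IBA, above the SA livers in each case, with a smaller difference from torpid of 1.47 (SE 0.22, edgeR adjusted p = 8.04e-05). Gpat3 was the exception among the 12. Its IBA livers were at 695, 457 and 533 CPM, each above the SA livers, and torpid minus IBA was -0.63 (SE 0.34, edgeR adjusted p = 0.128). Abhd2 was likewise high in IBA, at 2253, 2205 and 1967 CPM, with a difference of -0.26 (SE 0.19, edgeR adjusted p = 0.254).

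The falls divided more, with 6 of the 12 largest also called lower than in IBA. Bad was at 32.7, 43.9 and 38.3 CPM in IBA, so torpid minus IBA was -4.10 (SE 0.33, edgeR adjusted p = 8.8e-07), nearly as far as from SA. Of the 12, Hdc (-4.25), Igfbp1 (-4.75) and Tat (-2.95) were also called lower than in IBA. Outside the 12, so were Gys2 (-3.38) and Mrpl14 (-3.18). In contrast, SCD_containing_gene16206 was at 6.54, 5.23 and 14.4 CPM in IBA, within the torpid range, and torpid minus IBA was -0.01 (SE 0.69, edgeR adjusted p = 0.993). Mmp20 (5.40, 2.30 and 2.55 CPM in IBA), Aacs_rna21691 (6.82, 9.41 and 8.78 CPM) and CYP1A1_like (0.568, 2.09 and 3.19 CPM) had low IBA levels too. Their differences from torpid were -0.01 ± 0.71, -0.45 ± 0.66 and -0.55 ± 1.11 (SE), and none was called. CYP7A1 was at 11.4, 10.2 and 13.7 CPM and CYP8B1 at 19.9, 19.0 and 23.6 CPM in IBA, below SA replicates 1 and 3. For CYP7A1 every IBA liver was above SA replicate 2, and for CYP8B1 the IBA livers lay on both sides of it. Both genes, also of the 12 largest falls, were called lower in torpid than in IBA liver. SCD_containing_gene16210 was the lowest in IBA, at 9.38, 9.41 and 6.39 CPM, where torpid minus IBA was 1.73 (SE 0.43, edgeR adjusted p = 0.00352), not past the threshold.

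The lists can be read the same way, against 14.2% of single-gene units called higher and 15.3% lower in torpid than in IBA and a median of -0.07. Splicing factors had 28 of 56 called higher and 1 lower (median log2 fold change 0.63), proteasome subunits 8 of 20 and 0 (median 0.61), and glucose and glycogen metabolism 2 of 18 higher and 7 lower (median -0.94). Secreted plasma proteins had 0 of 41 called higher and 17 lower (median -1.25). Cholesterol synthesis and uptake had 0 of 9 called in edgeR against IBA, with 5 of 9 at an adjusted p at or under 0.05 and a median of -0.86, and fatty acid and triglyceride synthesis had 1 of 14 called higher and 3 lower with a median of 0.08.

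**Figure D4:**
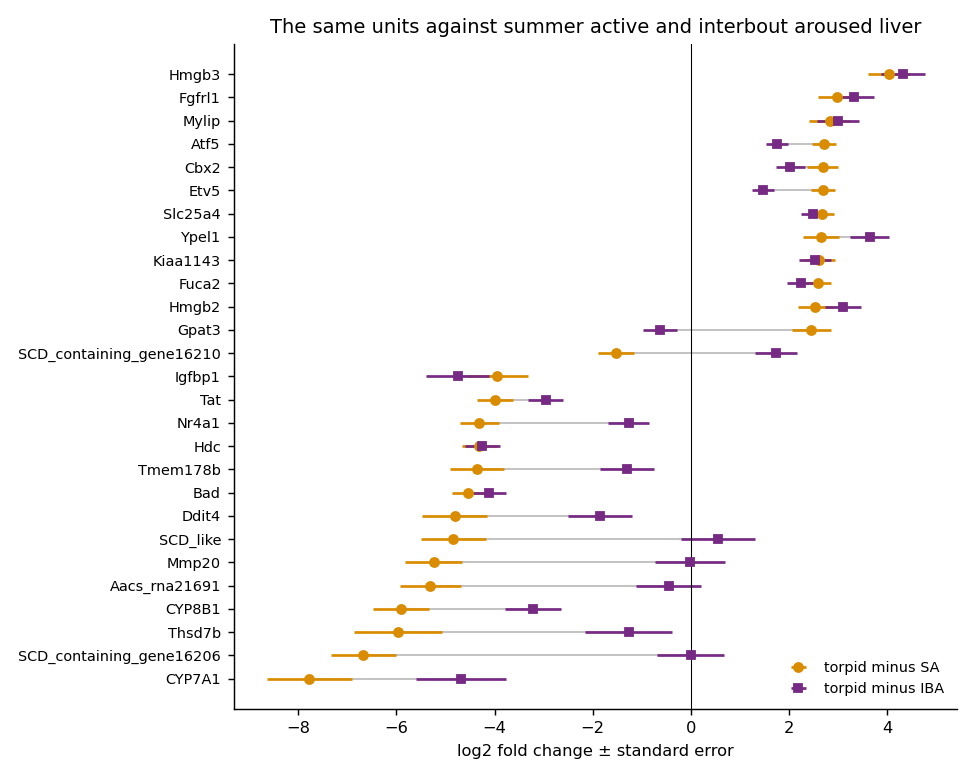
For the 24 genes with the largest changes and the 3 units named for SCD, circles give the log2 fold change of torpid minus SA and squares that of torpid minus IBA, with standard errors as bars. For Gpat3 the 2 values are 2.45 and -0.63, and for SCD_containing_gene16206 and Mmp20 torpid minus IBA is -0.01 in both.

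ET and LT were compared directly, with 3 livers against 2. In edgeR 0 units were called between them at the adjusted p of 0.001, which does not show that they were alike, since 550 of 6324 (8.70%) had an unadjusted p at or under 0.05, where 316.2 would be reached at that p with no difference, and DESeq2 called 37 and limma-voom 0. Among the 12 largest rises LT minus ET ranged from -0.82 to 0.66 on the log2 scale, and the lowest edgeR adjusted p was 0.27. Among the 12 largest falls it ranged from -0.67 to 1.17, with a lowest edgeR adjusted p of 0.693. With ET as the only torpid state 736 units were called higher and 621 lower than in SA, and with LT as the only one 519 and 477. ET and LT were collected in different cycles, so state and cycle cannot be told apart between them.

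Calls also varied with the length of the unit. When single-gene units were divided by length into 4 bins of like size, in the 3 bins up to 74551 nt, 16.1%, 19.3% and 14.1% were called higher, but in the longest bin, from 74561 to 1969614 nt, 4.25% were. Calls of lower transcription varied less, at 17.8%, 15.2%, 13.8% and 14.8% from the shortest to the longest bin. The median log2 fold change was 0.04, 0.03, 0.01 and -0.16. Longer units held more counts, with medians per bin of 217.5, 384.3, 571.3 and 1160.3, and smaller standard errors, with medians of 0.23, 0.18, 0.16 and 0.16, so the longest bin had the most reads and the lowest share of rises.

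**Figure D5:**
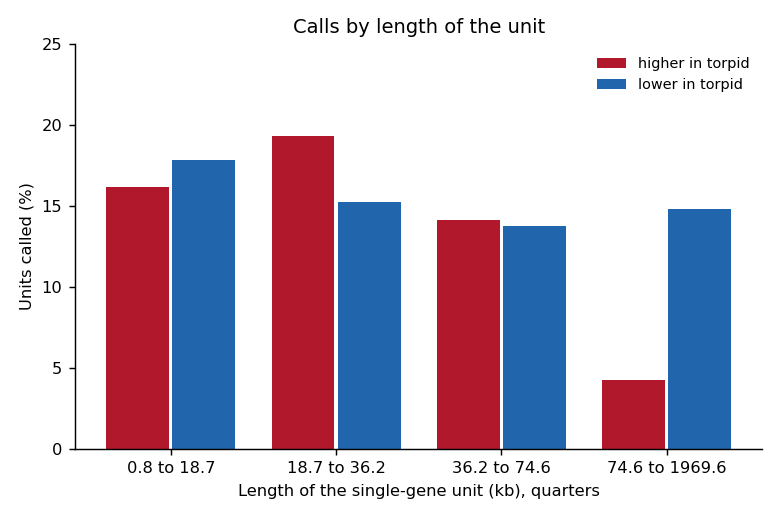
Bars give the percentage of single-gene units called higher (red) and lower (blue) in torpid liver for the 4 bins of unit length, in kb. The share called higher is 4.25% in the longest bin and 14.1% to 19.3% in the others, while the share called lower stays between 13.8% and 17.8%.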

How the data were processed

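Per the labels and the study's methods, the authors trimmed the GRO-seq reads with cutadapt, aligned them to the HiC_Itri_2 genome with BWA and counted uniquely aligned reads per unit with featureCounts. Units were annotated genes, extended where the reads themselves ran further 3′ (fstitch), with the first 500 nt removed and overlapping genes merged under all their names. The extensions were merged over all states, so a unit can hold torpid reads from beyond the 3′ end used in SA. The deposited values are raw read counts, with no normalization and replicates kept apart. Versions of these tools are not given in the sources used here. Reads from near-identical gene copies that do not align uniquely were not counted.

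From these counts, library factors (TMM) and edgeR's quasi-likelihood test (edgeR 4.0.16, R 4.3.3) were computed over all 6324 units, with the groups SA, IBA, Ent and torpid (ET with LT) and all 14 libraries sharing the dispersion. The contrast was torpid minus SA. Adjusted p is Benjamini-Hochberg over all units, and the threshold was 0.001. CPM are TMM-normalized, ± is the SD over animals for CPM and the SE for log2 fold changes. The low-count filter removed no unit. The fit was also run on counts simulated with its own dispersions and 200 changed units. That run checks the code and not the calibration of the calls on these data. Alternatives used DESeq2 1.42.0, limma-voom (limma 3.58.1), other scalings (among them the study's totals of uniquely mapped reads), other sample sets, a replicate block, a term for collection cycle, and leaving out each library.

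Named units were, among single genes with a symbol, called and without overlap, the 12 largest rises and falls and the 5 largest in CPM each way; 2 units without symbol and 2 merged units each way; for each list the called member with the largest rise and fall and the uncalled member with the highest mean CPM; and the SCD units and Hsp90aa1. Other list members are named by fold change, and Kdr was added as the endothelial receptor. The members and lists were chosen with earlier results of these data known. Of the single-gene units 86.4% matched a RefSeq name (4063 of 4705). No DNA sequence was used, and a planned description of promoter motifs was not run. Some genes counted in the lists, or chosen by this rule, are not reported here by name.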

Additional observations from a re-analysis of the deposited data

Results flagged for a closer look

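In 4 of the named units, 1 of the 5 torpid libraries lay apart from the others. Its gap to the nearest, as a share of the range, passed Dixon's 95% critical value of 0.71. Chance passes that value in about 1 in 20 groups. The check covered most of the 75 named units that were called, so a few such gaps would be reached by chance alone. Hsp90aa1 was at 219.6 CPM in ET replicate 1 and 128.0 to 143.8 CPM in the other torpid livers, a gap of 0.828 of the range. Atp6v1g1 was also highest in ET replicate 1, at 149.0 CPM against 113.4 to 119.9 CPM, a gap of 0.819. For Nr4a1 the same library was at 8.98 CPM against 3.14 to 4.53 CPM, a gap of 0.762. Tmem178b was highest in LT replicate 3, at 24.9 CPM against 4.23 to 9.43 CPM, a gap of 0.749. The call of each of these units was kept when the library in question was left out.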

How the results depend on the processing

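Against 860 units called higher and 924 lower, a share of 48.2% higher, the cause of the following changes was not tested. DESeq2 gave 1304 higher (share 50.7%), upper-quartile scaling a share of 51.0%, total counts 60.0%, and uniquely mapped reads 1319 higher (68.2%). With only the SA and torpid groups in the fit, which has fewer samples, there were 522 and 543. ET as the only torpid state gave a share of 54.2%, and LT gave 519 and 477 (52.1%). With the collection cycle as a term there were 280 and 361 (43.7%). At an adjusted p of 0.05 there were 1739 and 1888, and with a 2-fold minimum 507 higher (40.6%). Leaving out 1 library gave 517 to 856 higher, 636 to 930 lower and shares of 44.8% to 50.3%. Torpid against IBA, 1828 calls, gave 1102 with LT alone, 363 with the collection cycle, 3740 at 0.05 and 1214 to 1974 with 1 library left out. Between ET and LT, 0 calls became 37 in DESeq2 and 17 at 0.05, and the fit with the collection cycle could not be made, since ET fills a cycle.

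A replicate block gave 738 higher and 820 lower (47.4%) for torpid against SA, 1611 for torpid against IBA and 0 between ET and LT. The replicate numbers name separate animals and do not pair them. Deviations of same-numbered SA and torpid libraries correlated at -0.05, 0.15, -0.11, -0.01 and 0.11, and those of differently numbered ones at -0.15 to 0.09. Deviations were taken from the mean of each state, so the 2 LT libraries mirror each other and their values cannot inform on pairing. Among the 75 named units called, 40 kept the call in each refit that held them (27 or 28) and 0 changed sign. The collection-cycle term lost 28 of these calls, more than any other refit. As ET fills a cycle, that refit sets LT alone against SA, so a loss there mixes cycle with the smaller torpid group. Depth limits the deepest falls, where torpid libraries of CYP7A1 held 0 to 7 counts.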

Other observations

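Among the named units, 3 pairs that lie near each other were noticed after their values were seen. Etv5 and Tra2b, 96.1 kb apart on the same strand, both rose, by 2.68 and 2.03 on the log2 scale. Selenop and the merged unit of G3243 and G3238, 28.3 kb apart on the same strand, both fell, with log2 fold changes of -2.21 and -4.31. Neu1 and Nelfe, 81.2 kb apart on the same strand, moved in opposite directions, with log2 fold changes of 2.11 and -1.56. Whether neighbours share direction more often than other units was not tested.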
